A study of Mus musculus with 2 samples.

Results

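The Gdf10 Sfrp4 mesenchymal progenitors are cells of the mouse plantaris muscle in which the transcripts of Gdf10, Sfrp4, C7 and Penk outweigh the marker transcripts of the other mesenchymal states. They were described from single-cell RNA sequencing of sorted living cells. The labels name 5 male C57BL/6 mice, aged 12 weeks: the plantaris of 1 leg was collected 4 days after tenotomy, which unloads a muscle by cutting a tendon, and that of the opposite leg after a sham operation. The 5 muscles of a side were pooled, digested with collagenase and sorted for Calcein AM uptake and propidium iodide exclusion, and each pool gave 1 library of 10x Genomics 3' chemistry. The labels name no allele or agent, and each group is 1 library, so there is no replicate, the muscles of a pool cannot be separated, and treatment and library cannot be told apart. The sources used here do not name the tendon.

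The members were chosen by their own counts of unique molecular identifiers (UMIs). A barcode was kept with at least 500 UMIs, at least 300 genes and at most 10% mitochondrial UMIs. It was mesenchymal if Dcn, Col1a1, Col1a2, Col3a1 and Lum made up at least 1% of its UMIs, if the tendon genes Tnmd, Kera and Chad summed to fewer than 5 UMIs, and if Ptprc and Pecam1 had at most 1 UMI each. UMIs were then summed over 4 marker sets: Pi16, Sema3c, Efhd1 and Cd55; Smoc2, Mme, Col6a6 and Hmcn2; Gdf10, Sfrp4, C7 and Penk; and Postn, Tnc, Cthrc1 and Col8a1. A member had the Gdf10 set as its largest sum, with at least 3 UMIs. The rule found 194 members, 75 in the tenotomy and 119 in the sham library, among 4010 mesenchymal barcodes and 18975 kept barcodes. No member barcode was shared between the libraries, although 33 barcodes occurred in both deposited files and 2 of the tenotomy members carried one of them.

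Mesenchymal progenitors of muscle, also called fibro-adipogenic progenitors, are interstitial cells that express Pdgfra, lay down matrix and send signals to muscle stem cells and fibres. Gdf10 encodes BMP3b, a secreted member of the TGF-beta superfamily that mesenchymal progenitors make and that is known in mice to help maintain muscle. Sfrp4 encodes a secreted Wnt-binding protein, C7 a component of the terminal complement pathway, and Penk the precursor of the enkephalin opioid peptides.

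The tenotomy file held 94556283 UMIs in 11950 barcodes and the sham file 47781353 UMIs in 8463 barcodes. Members held 557610 UMIs in the tenotomy library, with a median of 6744 UMIs and 2168 genes per cell, and 943809 UMIs in the sham library, with a median of 7497 UMIs and 2390 genes per cell. Levels are given as CPM, the UMI count of a gene over the summed UMIs of the cells, scaled to the same total, brackets hold 95% intervals that cover counting error only, and a gene counts as higher or lower when its CPM ratio, tenotomy over sham, passed 2-fold. That limit is a rule of size and not a test. CPM is a share of the RNA counted, so it gives no amount per cell.

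Members were a small fraction of the mesenchymal cells on both sides. They made up 4.13% (3.26 to 5.15) of mesenchymal barcodes in the tenotomy library and 5.43% (4.52 to 6.46) in the sham library, with exact binomial intervals. The ratio of these shares was 0.761 (0.574 to 1.01), with a normal interval on the log scale. The other states differed more between the libraries. The Smoc2 set led in 15.5% of mesenchymal barcodes after tenotomy and 70.3% in sham, the Pi16 set in 9.25% and 14.5%, and the Postn Tnc set, which marks activated cells, in 66.5% and 0.866%. Among all kept barcodes members were 0.667% (0.525 to 0.836) in the tenotomy library and 1.54% (1.28 to 1.84) in the sham library, a ratio of 0.434 (0.326 to 0.579). That base includes 4037 immune barcodes, those with over 1 Ptprc UMI, after tenotomy and 319 in sham. Without them members were 1.04% (0.820 to 1.30) in the tenotomy library and 1.60% (1.33 to 1.92) in the sham library. The ratio was then 0.649 (0.487 to 0.865). All these intervals cover only the counting of cells within 1 library per side. They do not measure the spread between mice, and a difference between the sides was not tested.

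**Figure D1:**
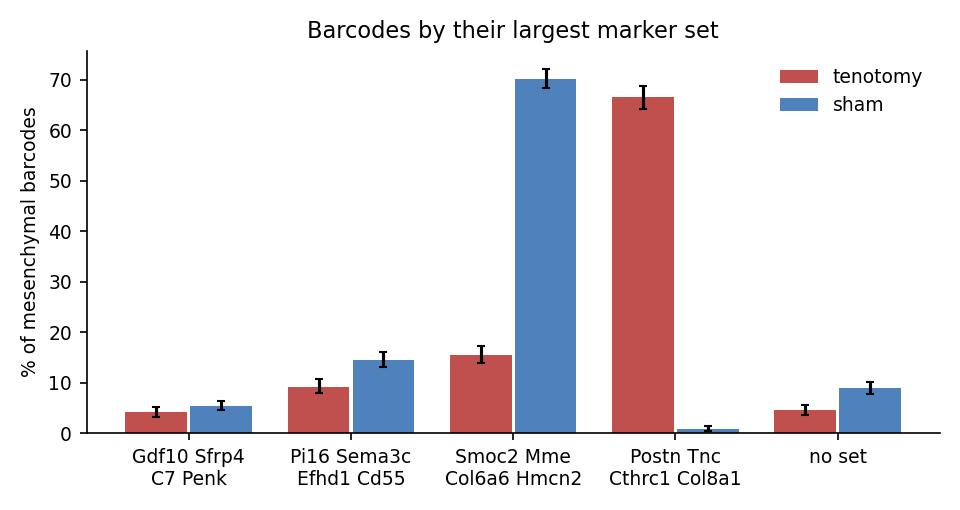
Share of mesenchymal barcodes (y axis, %) in which each marker set, or no set, was the largest, with exact 95% binomial intervals, for the tenotomy library (red) and the sham library (blue). The Gdf10 set led in 4.13% and 5.43% of barcodes, while the Smoc2 set and the Postn Tnc set change places as the most frequent.

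The tenotomy count depended on the Postn Tnc set. Of the tenotomy barcodes with at least 3 UMIs of the Gdf10 set, 236 had another set at a larger sum, and in 154 of these it was the Postn Tnc set. In sham 455 such barcodes had a larger set, which was Smoc2 in 347 and Postn Tnc in 2. When the Postn Tnc set was left out of the comparison, members numbered 123 in the tenotomy library and 121 in the sham library, and the ratio of shares was 1.23. At the threshold of the rule, 3 tenotomy and 5 sham members held exactly 3 UMIs of the Gdf10 set, and 2 tenotomy and 7 sham barcodes with the set largest held 2 and stayed outside. The set sum ran from 3 over a median of 17 to 130 UMIs in tenotomy members and from 3 over 12 to 174 UMIs in sham members. In 7 tenotomy members (9.33%) and 15 sham members (12.6%) the Gdf10 set led by a single UMI.

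The 4 genes of the rule did not hold their proportions across the libraries. Gdf10, on chromosome 14 from 33923587 to 33937983 of mm10, stood at 423 CPM (371 to 481) in tenotomy members and 425 CPM (384 to 469) in sham members. Sfrp4, on chromosome 13 from 19623104 to 19632994, stood at 2315 CPM (2191 to 2445) in tenotomy members and 1131 CPM (1064 to 1200) in sham members. C7, on chromosome 15 from 4988762 to 5063740, stood at 118 CPM (91.5 to 151) in tenotomy members and 456 CPM (414 to 501) in sham members. Penk, on chromosome 4 from 4133531 to 4138819, stood at 405 CPM (354 to 462) in tenotomy members and 573 CPM (526 to 624) in sham members. Since these genes chose the members, the levels are a description and support nothing. Sfrp4 was 2.05-fold (1.89 to 2.22) higher after tenotomy and C7 3.85-fold (2.96 to 5.07) lower, while Gdf10 and Penk stayed within 2-fold. With the Postn Tnc set not used to choose members the ratios were 0.996 for Sfrp4, 0.439 for Gdf10 and 0.110 for C7. Gdf10 was thus past 2-fold lower in that setting. In Sfrp4-led members the ratio of Sfrp4 was 0.936.

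The makeup of the members by the same 4 genes differed too. These genes chose the members, so the makeup is also a description and supports nothing. Sfrp4 had the most UMIs of the 4 genes in 48 of 75 tenotomy members (64.0%, 52.1 to 74.8) and in 31 of 119 sham members (26.1%, 18.4 to 34.9). C7 led in 1 tenotomy member and in 32 sham members, Penk in 13 and 30, and Gdf10 in 10 and 20, with ties in 3 and 6. The genes often occurred together in a cell: exactly 3 of them were seen in 19 tenotomy and 48 sham members, and all 4 in 12 and 15. Gdf10 and Sfrp4 were both seen in 52.0% of tenotomy and 26.1% of sham members, whereas Gdf10 and C7 were both seen in 33.3% of tenotomy and 45.4% of sham members. Without Sfrp4 in the set, the members numbered 41 and 93 and the ratio of shares among mesenchymal barcodes was 0.532.

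Over all mesenchymal barcodes, a base that the Gdf10 set did not choose, Gdf10 stood at 11.2 CPM (9.99 to 12.4) after tenotomy and 60.4 CPM (56.7 to 64.2) in sham. C7 stood at 4.82 CPM (4.07 to 5.68) after tenotomy and 60.3 CPM (56.6 to 64.1) in sham, and Penk at 38.2 CPM (36.0 to 40.5) and 151 CPM (145 to 157). Sfrp4 differed least, with 91.0 CPM (87.6 to 94.5) after tenotomy and 104 CPM (99.4 to 109) in sham. The Postn Tnc set cells, which held most mesenchymal UMIs of the tenotomy library, carried 2.15 CPM of Gdf10 and 0.940 CPM of C7. The Smoc2 set carried 14.99 CPM of Gdf10 after tenotomy and 45.3 CPM in sham.

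Counts of this kind can come from free RNA, so the markers were read in cells that should lack them, with every cell thinned to 2000 UMIs. Gdf10 was then seen in 45.2% of 73 tenotomy members and in 0% of 1238 tenotomy endothelial barcodes, and in 45.2% of 115 sham members and 0.451% of 3101 sham endothelial barcodes. The unthinned shares were 68.0% and 0.0646% after tenotomy, and 65.5% and 0.739% in sham. Sfrp4, C7 and Penk stayed at or under 0.613% of thinned endothelial barcodes in both libraries. The rule asks for UMIs of these genes in members, so an excess over endothelial barcodes follows from the choice of cells, and the endothelial shares stand only as the level in cells outside the rule.

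**Figure D2:**
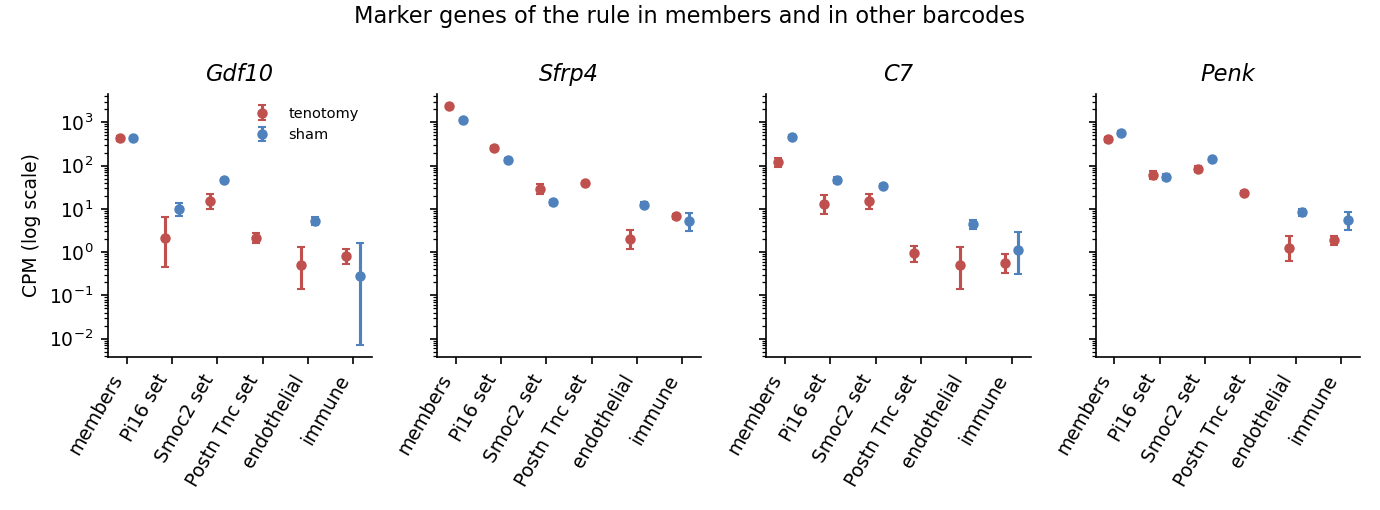
Level of the 4 rule genes (y axis, CPM on a log scale, exact 95% Poisson intervals) in members, in cells of the other marker sets, and in endothelial and immune barcodes, for the tenotomy library (red) and the sham library (blue). Populations with 0 UMIs are not drawn, and for the Postn Tnc set only tenotomy is drawn, since sham held 19 such cells.

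The broader markers of mesenchymal progenitors were present. A list of 15 such genes includes the 5 genes of the mesenchymal gate, which the rule used and which held 41307 of the list's 55385 CPM in tenotomy members and 36291 of its 80239 CPM in sham members. The other 10 genes were all detected in both libraries and summed to 14078 CPM in tenotomy members and 43948 CPM in sham members, 599% and 261% of their level over all kept barcodes. Gsn, the gelsolin gene, alone held 9803 CPM of that sum in tenotomy members and 39461 CPM in sham members. The percentages thus rest mostly on Gsn and do not show that the genes were each enriched. Pdgfra, the receptor that defines these cells, stood at 201 CPM (165 to 242) after tenotomy and 482 CPM (439 to 528) in sham. Cd34 stood at 393 and 691 CPM, and Ly6a, the stem cell antigen Sca-1, at 2190 and 1300 CPM. Osr1, a transcription factor of muscle connective tissue, was at 50.2 CPM (33.4 to 72.6) after tenotomy and 48.7 CPM (35.7 to 65.0) in sham. Kera, Chad and Scx, 3 of 10 tenocyte markers, had 0 UMIs in tenotomy members, and Kera and Chad had 0 in sham members, where the gate limits Tnmd, Kera and Chad. The 10 tenocyte markers together still summed to 712 CPM in tenotomy members and 196 CPM in sham members, 65.0% and 6.84% of their level over all kept barcodes, led by Thbs4 at 337 CPM after tenotomy and by Comp at 111 CPM in sham.

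A set of transcripts outside the rule went with the members on both sides. The 15 genes with the highest bound of the ratio of members over other mesenchymal barcodes were chosen in the sham library and then read in the tenotomy library. Because the mesenchymal barcodes there were mostly Postn Tnc set cells, the reading is also given against the Pi16 and Smoc2 sets together. In the tenotomy library 13 of the 15 were at least 2-fold higher in members than in other mesenchymal barcodes, where 10.1% of all genes were. Against the Pi16 and Smoc2 sets 11 of the 15 were at least 2-fold higher, where 3.36% of all genes were, with a median ratio of 4.34. Chosen in the tenotomy library and read in sham, 12 of 15 were at least 2-fold higher against other mesenchymal barcodes, where 2.44% of genes were, and 12 of 15 against the Pi16 and Smoc2 sets, where 3.13% were. These ratios describe 2 libraries and carry no test.

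The 7 genes on both lists included the complement genes C4b and Cfb and, outside that pathway, Fbln1, Comp, Fmo2 and Cxcl13. C4b, a component of the classical pathway, stood at 398 CPM in tenotomy members and 225 CPM in sham members, which was 4.62-fold (3.85 to 5.53) and 14.3-fold (11.8 to 17.3) the level in the Pi16 and Smoc2 sets of the same library. Cfb, which forms the alternative pathway convertase, stood at 355 and 126 CPM, 2.98-fold (2.50 to 3.55) and 4.68-fold (3.78 to 5.75). C2, its classical pathway counterpart, was chosen in tenotomy and stood 6.62-fold (4.50 to 9.76) and 7.47-fold (5.44 to 10.2) above the sets. The 19 Postn Tnc set cells of sham carried more C2 than sham members, 347 CPM with 47 UMIs against 65.7 CPM. They carried less C4b and Cfb, at 111 and 29.6 CPM. C4b, Cfb and C2 thus stood above the Pi16 and Smoc2 sets on both sides. C7 is a gene of the rule and is not counted with them.

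Matrix and enzyme genes completed the shared transcripts. Fbln1, which encodes fibulin 1, was seen in 63 of 75 tenotomy and 98 of 119 sham members, at 599 and 641 CPM, 4.34-fold (3.75 to 5.01) and 4.35-fold (3.97 to 4.76) the Pi16 and Smoc2 sets. Comp, a cartilage and tendon matrix protein, stood at 332 and 111 CPM, 11.3-fold (8.76 to 14.6) and 9.09-fold (7.09 to 11.6). Fmo2, a flavin monooxygenase, stood at 170 and 336 CPM, 9.10-fold (6.53 to 12.8) and 4.86-fold (4.27 to 5.52). The 19 Postn Tnc set cells of sham carried more Fmo2 than sham members, 488 CPM with 66 UMIs, but less Fbln1 and Comp, at 81.3 and 59.1 CPM. Cxcl13, a chemokine for B cells, rested on few cells: 6 tenotomy and 8 sham members held all its UMIs, with 47.6% and 50.6% of them in 1 cell. Of the genes chosen in 1 library, Tpm1, Tpm2, Mmp3 and Serpina3n were below 2-fold over the Pi16 and Smoc2 sets after tenotomy, and Abcc9, Igfbp3, Ccdc3, Emb and Sfrp2 were among those over 5-fold there. Gal, the galanin precursor, is on the tenotomy list through 54 UMIs in 1 cell.

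**Figure D3:**
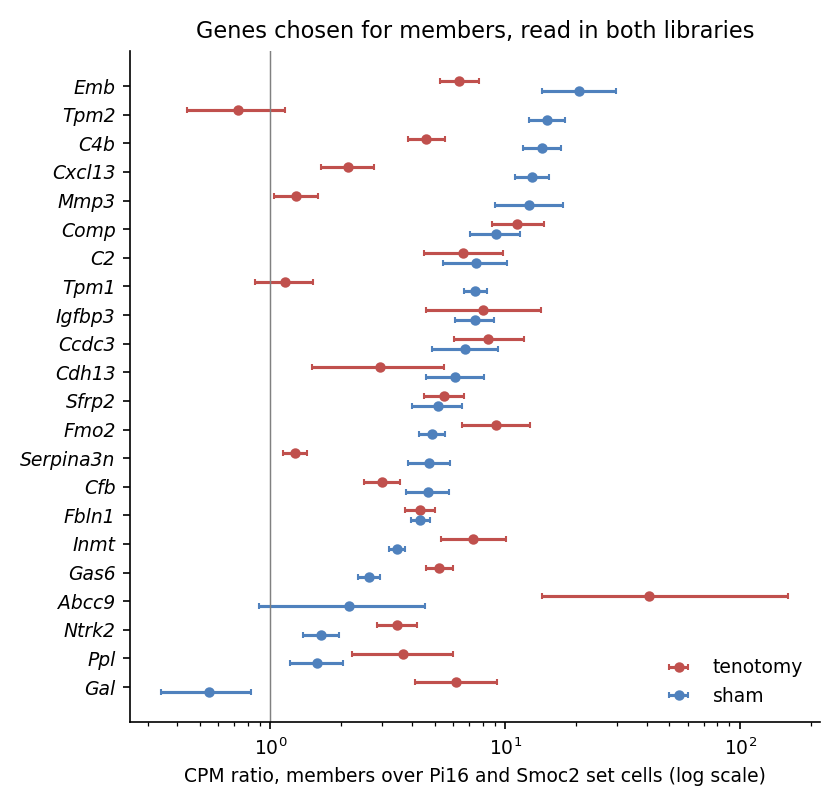
Ratio of CPM in members over the Pi16 and Smoc2 set cells of the same library (x axis, log scale) for 22 genes chosen in either library, with 95% counting intervals, tenotomy in red above sham in blue. C4b, Comp, Fmo2 and Fbln1 lie over 4-fold in both libraries, while Tpm2 and Tpm1 lie near 1 after tenotomy.

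Between the sides, members carried more of the chemokine transcripts Cxcl2 and Cxcl5 and of the protease inhibitor Timp1 after tenotomy, and less of Gsn, Myoc and Irf1. A gene was measured when the library with the higher CPM had at least 50 CPM and 25 UMIs and at least 10% of its level over all kept barcodes. Among the 3210 measured genes 213 (6.64%) passed 2-fold upward and 238 (7.41%) downward, and the median log2 fold was 0.03. In the Pi16 and Smoc2 sets 4.79% and 5.33% of 3319 measured genes did. The 15 genes each way whose interval bound lay farthest from 1 are named here.

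**Figure D4:**
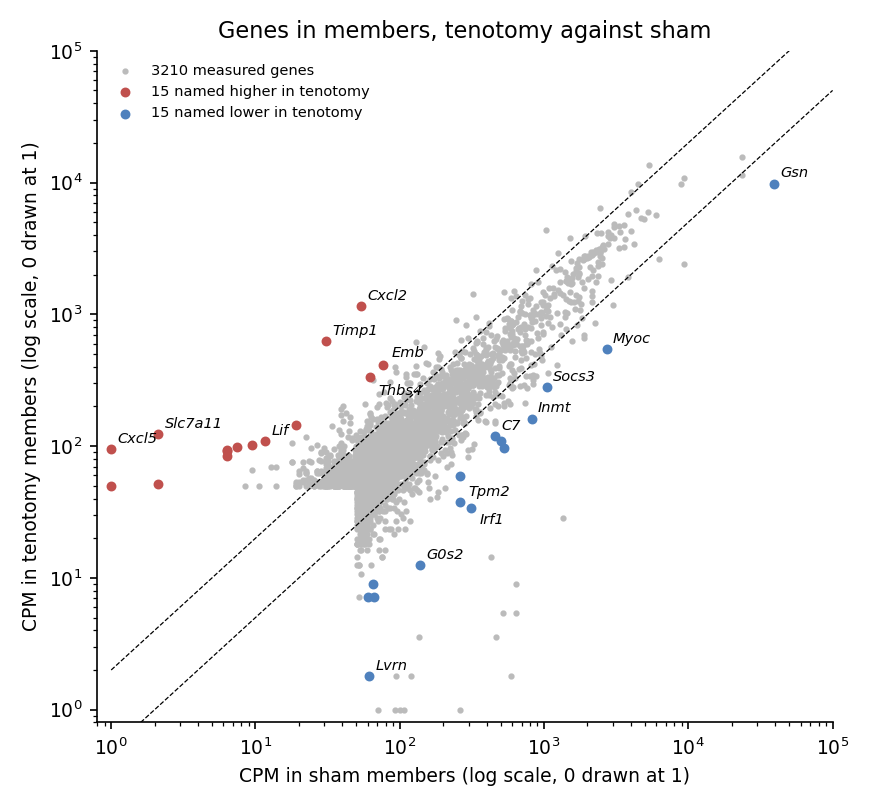
CPM of the 3210 measured genes in tenotomy members (y axis) against sham members (x axis), both on log scales with 0 drawn at 1. Dashed lines mark 2-fold, red points the 15 named genes higher in tenotomy members, with Cxcl2 at 1157 and 54.0 CPM, and blue points the 15 named lower, with Gsn at 9803 and 39461 CPM.

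Timp1, an inhibitor of matrix metalloproteinases, had 350 UMIs in 55 of 75 tenotomy members and 29 UMIs in 21 of 119 sham members. That was 628 CPM (564 to 697) and 30.7 CPM (20.6 to 44.1), a ratio of 20.4 (13.97 to 30.96). Cxcl2, a neutrophil-attracting chemokine, stood at 1157 CPM (1069 to 1250) in tenotomy members, in 40 cells, and 54.0 CPM (40.2 to 71.0) in sham members, in 8 cells, a ratio of 21.4 (16.1 to 29.1). A single sham cell held 74.5% of the sham UMIs. Cxcl5, another neutrophil chemokine, had 53 UMIs in 15 tenotomy members and none in sham members. With 3 counts put in place of the sham 0 its ratio was 29.9, which is not a lower bound. Both chemokines and Timp1 were thus found in more tenotomy than sham members.

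Lif, a cytokine of the interleukin 6 family, stood at 109 CPM in 20 tenotomy members and 11.7 CPM in 8 sham members, a ratio of 9.39 (4.89 to 19.8). Emb, which encodes the adhesion protein embigin, stood at 409 CPM in 38 tenotomy members and 76.3 CPM in 14 sham members, a ratio of 5.36 (4.10 to 7.09). Thbs4, a thrombospondin of tendon and muscle matrix, stood at 337 and 62.5 CPM, a ratio of 5.39 (4.01 to 7.35), and is 1 of the 10 tenocyte markers. Fkbp11, a folding enzyme of the endoplasmic reticulum, stood at 102 and 9.54 CPM, a ratio of 10.7 (5.27 to 24.6). Slc7a11, the cystine transporter, had 69 UMIs in 14 tenotomy members and 2 UMIs in 1 sham member, a ratio of 58.4 (15.6 to 492). After every cell was thinned to 2000 UMIs and the rule applied again, Slc7a11 had 2 UMIs in 61 tenotomy members and none in 112 sham members, too few for a fold. Fkbp11 then had 5 and 3 UMIs, a ratio of 3.06 (0.595 to 19.7), so its difference was not clear at that depth. Lif, Emb and Thbs4 then had ratios of 9.18 (1.96 to 86.2), 5.71 (2.62 to 13.8) and 2.60 (1.66 to 4.10). These differences rest on between 14 and 38 tenotomy cells each.

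The rest of the higher genes were rarer. Ereg had 28 UMIs in 2 tenotomy members, 75.0% of them in 1 cell, and none in sham members. Chl1, Tac1 and Lcn2 were seen in 8 to 10 tenotomy members, with between 38.2% and 55.3% of their UMIs in 1 cell. After thinning, Ereg had no UMI, and Chl1 and Lcn2 had 2 UMIs each in tenotomy members and none in sham members, so the differences of these 3 genes were not detectable at that depth. Wfdc17, Pf4 and Lgmn, which macrophages also express, stood at 93.3, 91.5 and 143 CPM in tenotomy members and 6.36, 6.36 and 19.1 CPM in sham members.

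Markers of other cells moved with this comparison. The sum of 12 monocyte and macrophage markers was 610 CPM in tenotomy members, from 0 over a median of 346 to 5451 CPM per cell, and 75.2 CPM in sham members, from 0 over a median of 0 to 4587 CPM per cell. That was 6.13% and 3.36% of the level over all kept barcodes of each library. Ccr2 was at 0 in both libraries, and Ptprc, which the rule limits to 1 UMI, and Adgre1 were also at 0 in sham. The 8 neutrophil markers summed to 96.8 CPM and 19.1 CPM, with Cxcr2 and Mmp8 at 0 in both. Their part in the result as a whole was not tested, but single values can be read without the cells that carry them. Among the 21 tenotomy and 95 sham members with at most 1 UMI of the 2 lists, Timp1 was 10.8-fold higher, Cxcl2 13.8-fold, Lif 11.4-fold, Emb 4.22-fold and Thbs4 11.8-fold. Lgmn was then 2.77-fold (0.964 to 7.12) higher. Cxcl5, with 4 UMIs left in tenotomy members, had a ratio of 8.45 with 3 counts put in place of the sham 0.

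Among the lower genes, Gsn, which encodes the actin-severing protein gelsolin and was the most abundant gene of the progenitor list in sham members, stood at 9803 CPM (9544 to 10066) in tenotomy members and 39461 CPM (39062 to 39864) in sham members, 4.03-fold lower (3.91 to 4.14). It was seen in every member of both libraries. Myoc, the gene of the secreted glycoprotein myocilin, stood at 543 CPM in 26 tenotomy members and 2716 CPM in 89 sham members, 5.00-fold lower (4.43 to 5.65). Inmt, a methyltransferase of indoleamines, stood at 161 CPM in 26 tenotomy and 823 CPM in 89 sham members, 5.10-fold lower (4.10 to 6.42). Irf1, an interferon-regulatory transcription factor, stood at 34.1 CPM (20.5 to 53.2) in 14 tenotomy members and 312 CPM (277 to 349) in 69 sham members, 9.14-fold lower (5.75 to 15.4). These 4 genes were each lower by at least 4-fold and common in sham members.

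Socs3, the inhibitor of cytokine receptor signalling, stood at 282 CPM in tenotomy and 1040 CPM in sham members, 3.70-fold lower (3.12 to 4.40). G0s2, an inhibitor of triglyceride breakdown, stood at 12.6 and 139 CPM, 11.1-fold lower (5.22 to 28.0). Txnip, the thioredoxin-interacting protein gene, stood at 59.2 and 263 CPM, 4.44-fold lower (3.08 to 6.59). Nmb, the neuromedin B precursor, and Map3k8, a kinase of inflammatory signalling, were 7.33-fold (2.98 to 23.4) and 8.42-fold (3.11 to 32.0) lower. Lvrn, an aminopeptidase gene, had 1 UMI in tenotomy members and 58 in sham members, a ratio of 0.0292 (0.000726 to 0.169), and AY036118 was 5.42-fold lower (4.08 to 7.31). The rule gene C7 also met the naming rule.

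The remaining lower genes, Tpm2, Tpm1 and Pygm, rested on 1 sham cell. The deepest sham member, with 20345 UMIs, held 3592 of the 3694 UMIs of 8 myofibre markers in sham members, and with it 94.4%, 87.7% and 80.95% of the sham UMIs of Tpm2, Tpm1 and Pygm. It had 7 UMIs of the Gdf10 set. Without the deepest member of each library the ratio of Tpm2 was 2.56 and that of Tpm1 1.74, both above 1, where 5.51% of all genes with 25 UMIs were at least 2-fold higher and 8.83% lower. Pygm was at 0.570. Myofibre markers then summed to 53.7 CPM in tenotomy and 110 CPM in sham members.

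Gene lists were read by the count of their genes past 2-fold, among genes with at least 25 UMIs over both libraries. Of all 6164 such genes 5.91% were higher and 8.92% lower, and the median log2 fold was -0.05. No set test was made.

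Of 24 measured chemokine, cytokine and acute phase genes, 15 were higher after tenotomy and 1 lower, and the list's median log2 fold was 1.15. Beside Cxcl2, Cxcl5 and Lcn2, Ccl2, the main monocyte attractant, stood at 1419 CPM in 52 tenotomy members and 320 CPM in 31 sham members, a ratio of 4.43 (3.88 to 5.08). Il6 stood at 907 and 247 CPM, a ratio of 3.68 (3.14 to 4.31), and Il33, an alarmin released by stromal cells, at 396 and 92.2 CPM, a ratio of 4.30 (3.34 to 5.58). Cxcl12, the ligand of Cxcr4, stood at 825 and 289 CPM, a ratio of 2.85 (2.45 to 3.32). Cxcl1 was abundant on both sides, at 3949 CPM in 61 tenotomy members and 1922 CPM in 96 sham members, a ratio of 2.05 (1.93 to 2.19). Saa3, an acute phase gene, owes its count to 25 UMIs in 1 tenotomy cell. Ccl11, the eosinophil chemokine, was the gene that was lower, at 239 and 511 CPM.

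The chemokine list was also read in subsets of the members. Among members led by Sfrp4, 13 of 19 genes of the list were higher, where 7.87% of all genes were, and among members led by Gdf10, C7 or Penk 16 of 23 were, where 7.83% of all genes were. Among members with at most 1 immune marker UMI, 10 of 21 were higher, where 7.48% of all genes were, and Ccl2, Il6 and Il33 had ratios of 5.66, 4.62 and 6.63. In the Pi16 and Smoc2 sets together, which come from the same 2 libraries, 16 of 33 genes of the list were higher, where 6.25% of all genes were, so the list was not read as particular to members.

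The upstream sequences of some of these genes are shown because several inflammatory genes were higher in the summed members after tenotomy. The stretch from 150 to 31 bases before the RefSeq start is given for the neighbouring genes Cxcl1 and Cxcl2 and for Il6 and Lcn2, on the strand of the gene, from RefSeq on GRCm38. Capitals mark matches on either strand to the pattern GGG, any 3 bases, TTCC, a form of the site read by NF-kappa-B, a transcription factor of inflammation, with overlapping matches joined.
Cxcl1, chr5:90891095-90891214, + strand: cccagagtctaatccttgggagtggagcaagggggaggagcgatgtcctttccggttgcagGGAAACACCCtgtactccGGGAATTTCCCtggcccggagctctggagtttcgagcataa
Cxcl2, chr5:90903749-90903868, + strand: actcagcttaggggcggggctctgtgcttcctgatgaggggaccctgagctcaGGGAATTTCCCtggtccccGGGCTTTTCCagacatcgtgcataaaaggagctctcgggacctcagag
Il6, chr5:30012964-30013083, + strand: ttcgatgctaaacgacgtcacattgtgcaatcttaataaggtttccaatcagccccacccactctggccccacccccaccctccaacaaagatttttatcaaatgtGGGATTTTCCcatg
Lcn2, chr2:32387770-32387889, - strand: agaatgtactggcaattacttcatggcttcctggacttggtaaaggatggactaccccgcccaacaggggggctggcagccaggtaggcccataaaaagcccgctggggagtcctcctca

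The windows of Cxcl1 and Cxcl2 held 2 joined matches each, that of Il6 1 and that of Lcn2 none. Of the 12 higher genes of the list with a promoter entry, Cxcl1, Cxcl2 and Il6 held a match, as did Cxcl10 among 6 other genes of the list. Of all 32851 promoter windows 2.24% held one. A match is a run of letters and not a measured binding site, and a window without one says nothing of the factor.

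Matrix genes of the rule itself enter the next counts and are set apart. Of 20 collagen genes 5 were higher and 1 lower, and the median was 0.54 on the log2 scale, but 4 of the 5, Col1a1, Col1a2, Col3a1 and Col8a1, are genes of the rule. Of the other 16 collagen genes Col16a1 was higher and Col4a4 lower, with a median of 0.50. Col1a1 stood at 6361 CPM in tenotomy and 2449 CPM in sham members, a ratio of 2.60 (2.46 to 2.74), and Col3a1 at 13685 and 5344 CPM, a ratio of 2.56 (2.47 to 2.65). Of 18 elastic fibre and microfibril genes 8 were higher and 1 lower, with a median of 0.62. Lox, the enzyme that crosslinks collagen and elastin, stood at 563 and 147 CPM, a ratio of 3.82 (3.12 to 4.70). Mfap4, Efemp2 and Loxl1 had ratios of 3.55, 3.34 and 2.70, and Eln itself 2.39 (2.03 to 2.83). Efemp1 was the elastic fibre gene that was lower, 2.23-fold (1.67 to 3.03). In the Pi16 and Smoc2 sets together 8 of 20 elastic fibre genes were higher and 1 lower, with a median of 0.71.

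Of 34 secretory pathway and collagen folding genes 12 were higher and none lower, with a median of 0.59. Serpinh1, the collagen chaperone Hsp47, stood at 1383 and 640 CPM, a ratio of 2.16 (1.94 to 2.41). The collagen-modifying enzymes P3h1, Colgalt1 and Plod2 had ratios of 3.07, 2.87 and 2.81, and the translocon subunit Sec61b 2.81 (2.27 to 3.48). Hspa5, the chaperone BiP, was not among them, at 1035 CPM in tenotomy and 1405 CPM in sham members. The Pi16 and Smoc2 sets together had 5 of 36 genes of the secretory list higher and 0 lower, with a median of 0.59. The small leucine-rich proteoglycans split: Bgn was 2.51-fold (2.35 to 2.69) higher, while Dcn, Ecm2 and Omd were 2.06-fold, 2.32-fold and 5.24-fold lower, 1 higher and 3 lower of 10, where Dcn is a gene of the mesenchymal gate.

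Of 22 matricellular and activated fibroblast genes 10 were higher and 3 lower, with a median of 0.76. The rule keeps members whose Gdf10 set exceeds the Postn Tnc set, so the last set is capped in them. Without Postn and Cthrc1, both of that set, 8 of 20 were higher and 3 lower, with a median of 0.54. Postn still stood at 192 CPM in 22 tenotomy members and 39.2 CPM in 8 sham members, and Tnc had 21 UMIs in 12 tenotomy members and none in sham members. The Postn Tnc set cells of the tenotomy library carried 5923 CPM of Postn. Ccn4, a matricellular Wnt target, had 25 UMIs in tenotomy members and 2 in sham members, a ratio of 21.2 (5.28 to 184). After thinning, Ccn4 had 2 UMIs in tenotomy members and 1 in sham members, too few for a fold. The 3 lower genes were Tpm2, Tpm1 and Tagln, and without the deepest members 11 were higher and 1 lower. The Pi16 and Smoc2 sets together had 16 of 28 genes of this list higher and 1 lower, with a median of 1.24. The list was thus not read as particular to members.

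The stress and hormone-responsive transcripts went the other way. Of 33 immediate early and stress genes 2 were higher and 16 lower, and their median log2 fold was -0.999. Fos stood at 658 CPM in tenotomy and 1896 CPM in sham members, 2.88-fold lower (2.57 to 3.23), Egr1 at 857 and 2238 CPM, Btg2 at 212 and 737 CPM, and Zfp36, which destabilises cytokine messages, at 414 and 1238 CPM. Nr4a3 and Fosl1 were the 2 higher genes, each with a ratio of 2.62. Among members with at most 1 immune marker UMI, 8 of the 33 were lower, where 16% of all genes were, 5 were higher, and Fos was 1.34-fold lower. In the Pi16 and Smoc2 sets together 1 of 33 was higher and 19 were lower, where 10.5% of all genes were. The median there was -1.26, so the list was not read as particular to members.

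Of 20 glucocorticoid-responsive and metabolic genes none was higher and 8 were lower, with a median of -0.82. In the Pi16 and Smoc2 sets together none of 23 was higher and 12 were lower, with a median of -1.06. Tsc22d3, known as Gilz, was 3.07-fold lower (2.19 to 4.40), Zbtb16 4.23-fold (2.30 to 8.51) and Mt1, a metallothionein at 2608 and 6310 CPM, 2.42-fold (2.28 to 2.56). Of 12 adipogenic and lipid genes 1 was higher and 6 were lower, with a median of -0.98. Lpl, the lipoprotein lipase gene, stood at 298 and 835 CPM, and Gpx3 at 357 and 1073 CPM. Ebf2, a regulator of adipocyte commitment, stood at 115 and 231 CPM. Fabp4, which endothelial cells also express, was at 17.9 and 121 CPM, under 10% of its level over all kept barcodes, while the 10 endothelial markers together stood at 28.7 CPM in tenotomy and 193 CPM in sham members, with Kdr, Cldn5, Emcn and Esam at 0 after tenotomy. The adipogenic and lipid list had 1 of 20 genes higher and 6 lower in the Pi16 and Smoc2 sets together, with a median of -0.69.

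The pathways of the rule genes differed in single members. Of 8 measured BMP and TGF-beta ligands only Inhba, an activin subunit, was at least 2-fold apart, at 68.1 CPM in 4 tenotomy members and 21.2 CPM in 8 sham members. Bmp4 stood at 44.8 and 76.3 CPM and Bmp2 at 59.2 and 93.2 CPM. Of 13 antagonists and binders 3 were higher and 2 lower. Fstl1, a secreted follistatin-like protein, stood at 2900 and 1246 CPM, a ratio of 2.33 (2.16 to 2.51), and Chrdl1, a BMP antagonist, at 197 and 81.6 CPM, a ratio of 2.42 (1.79 to 3.28). Fst, which encodes follistatin and binds activins, was 2.36-fold lower (2.01 to 2.78), and Bambi, a decoy receptor, 2.99-fold lower (1.79 to 5.26). Of 23 receptor and response genes none was higher and 4 were lower, Tgfbi and the BMP targets Id1, Id2 and Id3, with 0.487 (0.420 to 0.565) for Id3.

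Of 17 Wnt genes 4 were higher and 4 lower. Beside the rule gene Sfrp4, Sfrp2 stood at 364 CPM in 17 tenotomy members and 94.3 CPM in 14 sham members, and Sfrp1 at 508 and 183 CPM, a ratio of 2.77 (2.28 to 3.37). A single tenotomy cell held 42.9% of the Sfrp2 UMIs, and Sfrp2 had a ratio of 0.643 among members with at most 1 immune marker UMI. Wnt5a and Wnt11, both ligands, were 2.18-fold (1.24 to 4.06) and 3.15-fold (1.30 to 9.22) lower. Of 16 complement genes 2 were higher and 4 lower, of which C7 and Cd55 are genes of the rule, and of the other 14 genes 2 were higher and 2 lower. Cfb had a ratio of 2.82 (2.23 to 3.57), the regulators Clu and Vtn were 2.82-fold and 3.45-fold lower, and C3 was near level at 1718 and 1459 CPM. Of the 8 measured genes of a list of neuropeptides, neurotrophins and receptors, Ntf3, neurotrophin 3, alone passed 2-fold and was lower, with 6 and 37 UMIs. The list lacks 2 neuropeptide precursor genes named above, Tac1, which was higher, and Nmb, which was lower.

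Genes of signals to muscle went both ways, with 6 of 24 higher and 4 lower. Igfbp4, which binds insulin-like growth factors, stood at 4352 CPM in all 75 tenotomy members and 1033 CPM in 100 of 119 sham members, a ratio of 4.21 (3.91 to 4.54). Igfbp6 and Igfbp3 were 2.56-fold (2.35 to 2.80) and 2.97-fold (2.04 to 4.46) lower, and Igf1 stood at 1401 and 738 CPM, a ratio of 1.90 (1.71 to 2.10). Lama2, the laminin chain that surrounds muscle fibres, was 2.40-fold lower (1.81 to 3.22). Aldh1a2, which makes retinoic acid, stood at 319 and 65.7 CPM, a ratio of 4.86 (3.62 to 6.60), and was 1 of 2 higher genes among 12 of retinoid and prostaglandin metabolism.

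The remaining lists held these counts. Of 29 nuclear oxidative phosphorylation genes none passed 2-fold in either direction. Of 21 glycolysis and hypoxia genes Hif1a was higher and Aldoa lower, and 1 sham cell held 62.0% of the Aldoa UMIs. Among 23 progenitor identity regulators Prrx2 and Thy1 were higher, and Pdgfra, Tcf4, Osr2, Dpp4 and Meox1 were lower. Of 19 proteases and inhibitors 3 were higher, Mmp23, Adamts4 and Mmp3, and Timp3 and Adamts5 were lower, and of 17 interferon genes 4 were higher and 2, Irf1 and Iigp1, were lower. Of 20 gelsolin, cytoskeleton and quiescence genes 5 were lower, namely Gsn, Myoc, Lvrn, Txnip and Enpp2.

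**Figure D5:**
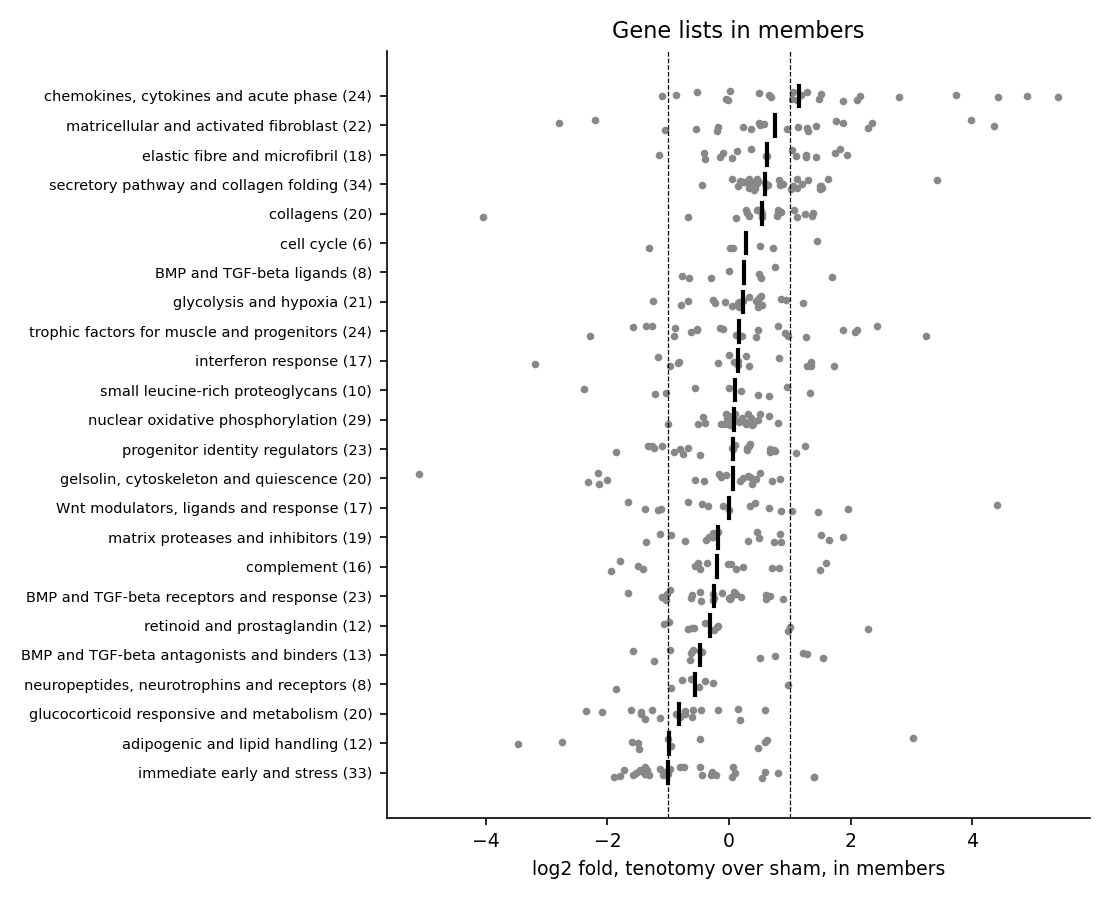
Log2 fold, tenotomy over sham, in members (x axis) for each gene (grey point) of 24 lists, with the number of genes of at least 25 UMIs in brackets, the list median as a black bar and dashed lines at 2-fold. Chemokines have the highest median, 1.15, and immediate early genes the lowest, -0.999, and the far left point of the gelsolin list is Lvrn with 1 tenotomy UMI.

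Few members carried cycle transcripts. At least 2 UMIs over cycle genes were seen in 3 of 75 tenotomy members (4.00%, 0.833 to 11.2) and 1 of 119 sham members (0.840%, 0.0213 to 4.59). Mki67 had 2 UMIs in tenotomy members and none in sham members. The Pi16 and Smoc2 sets had shares of 7.74% (4.18 to 12.9) and 7.80% (4.95 to 11.6) after tenotomy, and 0.627% and 1.23% in sham. A low share was thus not particular to members. In the Postn Tnc set cells of the tenotomy library, which were deeper with a median of 20137 UMIs, the share was 53.6%. After thinning to 2000 UMIs it was 1.37% of 73 tenotomy members and 23.6% of 1179 Postn Tnc set cells, and none of 115 sham members held as many.

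Beside the Pi16 and Smoc2 sets, some genes differed between the sides by another size in members. The comparisons share libraries, so the values are set side by side without a test. Slc7a11 had a ratio of 58.4 in members and 4.54 in the sets, Lif 9.39 and 2.96, and Pf4 14.4 and 3.88, where Slc7a11 had too few UMIs in members after thinning, as did Chl1. Birc2 and Plau were within 2-fold in members, at 1.36 and 1.41, and at 0.420 and 0.440 in the sets. In the other direction, Chl1 had 24.5 in members and 336 in the sets, Mmp3 2.85 and 27.9, Cxcl13 0.549 and 3.34, and Lvrn 0.0292 and 0.291. Emb had 5.36 and 17.3, from a sham level of 76.3 CPM in members and 3.71 CPM in the sets. Igfbp4 had 4.21 in members and 1.87 in the sets, and Gsn was 4.03-fold lower in members and 3.64-fold lower in the sets.

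Members led by Sfrp4 differed from those led by Gdf10, C7 or Penk in the same direction in both libraries for a group of genes chosen from their values, given here without a test. Thbs4 was 3.20-fold (2.08 to 5.14) higher in the Sfrp4-led cells of the tenotomy library and 3.81-fold (2.17 to 6.85) in those of sham. Aspn, the matrix proteoglycan asporin, was 2.82-fold and 4.12-fold higher, Igfbp6, a binding protein of insulin-like growth factors, 2.69-fold and 2.54-fold, Comp 2.23-fold and 1.96-fold, and Fn1 1.69-fold and 2.77-fold. Lower in the Sfrp4-led cells were Cxcl14, at 0.325 (0.281 to 0.375) and 0.276 (0.207 to 0.362) of the other members, Ptx3 at 0.357 and 0.0723, Tnfaip6 at 0.483 and 0.320, and Cxcl13 at 0.103 and 0.0253. Genes of other functions were also among those chosen, such as Klf3 and Ablim1 on the higher side and Btg2, Nr4a1 and Hhip on the lower side.

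Since the Sfrp4-led share was 64.0% after tenotomy and 26.1% in sham, the sides were also compared within each kind. Within Sfrp4-led members, 48 and 31 cells, 289 of 3674 genes were higher and 308 lower (8.38%), and within the others, 24 and 82 cells, 319 of 4076 were higher and 595 lower (14.6%). Of the collagen genes 6 of 18 and 5 of 19 were higher, and of the secretory genes 8 of 32 and 12 of 32. The collagen counts include collagen genes of the rule and were not made without them, so they support nothing. Immediate early genes were lower in 8 of 32 and 13 of 33, and glucocorticoid-responsive genes in 6 of 18 and 10 of 19. Cebpd, Bambi and Hmgb2 were lower over all members but had ratios of 1.01, 1.81 and 1.34 within Sfrp4-led members. C7, which had a ratio of 0.260 over all members, had one of 0.758 within Sfrp4-led members.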

How the data were processed

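Per the labels' protocols, living cells were sorted and 2 libraries of 10x Genomics 3' chemistry made. Per the submitters' processing notes the deposited UMI counts came from Cell Ranger 4.0.0 and mm10. No source used here gives the doublet removal, annotation or cell filters. The authors' UMI counts were used unchanged, and 32158 of 32285 gene IDs matched GENCODE vM21 symbols. Python 3.11.15, numpy 2.4.6, scipy 1.17.1, pandas 2.3.3 and scanpy 1.11.5 were used. Counts of members were summed per library and divided by their total UMIs. CPM has exact Poisson intervals, CPM ratios conditional binomial ones, shares Clopper-Pearson ones and ratios of shares normal ones on the log scale. Each group is 1 library, so there is no test or p-value; the code for ratios and intervals was tested on simulated data. Named are the 15 genes each way with the bound of the fold farthest from 1, the 15 signature genes per library, the 6 each way farthest from the Pi16 and Smoc2 sets, and set, gate and list genes; further list members and the Sfrp4-led contrast were chosen after their values were seen. The members, lists and rules were chosen with earlier results of these data known. Doublets were called with scrublet in scanpy at the tenotomy library's automatic threshold of 0.212, since the automatic sham threshold marked 1 barcode; they were kept in the main result, where 0 tenotomy and 2 sham members were called. Alternatives changed the marker rule, filters, thinning, scaling and the cells left out. Some genes that met the naming rules are not reported here.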

Additional observations from a re-analysis of the deposited data

Results flagged for a closer look

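Tpm2, a tropomyosin gene, differed in direction between the members and the Pi16 and Smoc2 sets. Its ratio, tenotomy over sham, was 0.143 (0.0872 to 0.224) in members, with 21 and 248 UMIs, and 2.96 (2.43 to 3.61) in the sets. Each group is 1 library and the difference was not tested. A single sham member held 94.4% of the sham UMIs, and without the deepest member of each library the ratio in members was 2.56.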

How the results depend on the processing

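Each group is 1 pooled library, so no setting measures the spread between mice, and 75 and 119 members limit rare transcripts. No paired analysis was possible because each group has 1 library. The ratio of member shares among mesenchymal barcodes, 0.761, ran from 0.592 to 0.928 under the other marker, filter, thinning and doublet settings, but was 0.532 with Sfrp4 left out of the set and turned to 1.23 with the Postn Tnc set not used; among kept barcodes the 2 settings gave 0.304 and 0.700. The 213 genes higher became 69 after thinning to 2000 UMIs, 422 without the Postn Tnc set, 85 without members of over 1 immune marker UMI and 444 with at least 10 UMIs and 20 CPM. The 238 lower became 116, 379, 446 and 612 in the same order, and 406 in members led by Gdf10, C7 or Penk. The settings on immune UMIs, leading marker and deepest cell were chosen after seeing the data. Of 134 named genes past 2-fold, 50 stayed past it in all 22 settings and 24 turned in at least 1; the cause was not tested. Without the deepest members Tpm2 was at 2.56 and Tpm1 at 1.74. Without the Postn Tnc set Tpm2 was at 1.12, Sfrp4 at 0.996 and Tagln at 8.45. With matrix genes at 2% or more Tpm2 was at 2.59, Tpm1 at 1.72 and Aldoa at 1.09. In members led by Gdf10, C7 or Penk, Ccl11 was at 1.005, Irf7 at 0.596, Fosl1 at 0.715 and Stmn1 at 0.795. In members led by Sfrp4, Tpm2 was at 1.55, Tpm1 at 2.01, Sfrp4 at 0.936, Inhba at 0.775, Bambi at 1.81, Wnt5a at 1.22, Cebpd at 1.01, Hmgb2 at 1.34 and Aldoa at 1.15. Without members of over 1 immune marker UMI, Id1 was at 1.06, Sfrp2 at 0.643, Fzd7 at 1.15, Fzd8 at 1.0001, Lgals3 at 0.956, Ccl11 at 1.56, Ifit1 at 0.974 and Bst2 at 0.704. After thinning, Tpm2 was at 4.59, Tpm1 at 2.75, Inhba at 0.918, Clu at 1.35 and Ptgfr at 1.05. With the Gdf10 set at least 2 times every other set Tagln was at 1.06. Without C7 in the set Tpm2 was at 2.25, Tpm1 at 1.85 and Aldoa at 1.06, without Gdf10 Iigp1 was at 1.11, and without Penk Inhba was at 0.928 and Tagln at 1.22.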
